A study of Caenorhabditis elegans with 57 samples.

Results

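The genes described here are 10 Caenorhabditis elegans genes of the synthetic multivulva (synMuv) and DREAM pathways, followed across every RNA and CUT&RUN group of the series. They were chosen by name: lin-15A (ZK678.1), lin-15B (ZK662.4), efl-1 (Y102A5C.18), dpl-1 (T23G7.1), lin-35 (C32F10.2), lin-9 (ZK637.7), lin-37 (ZK418.4), lin-52 (ZK632.13), lin-53 (K07A1.12) and lin-54 (JC8.6). All 10 were found among the 45461 genes of the RNA table and the 45624 genes of the CUT&RUN table. Of the 10, 2 lie on the X chromosome (lin-15A and lin-15B) and 8 on autosomes. The autosomal genes lie on chromosome I (lin-35 and lin-53), II (dpl-1), III (lin-9, lin-37 and lin-52), IV (lin-54) and V (efl-1).

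Loss of a class A synMuv gene together with a class B gene gives worms with extra vulvae, because the pathways redundantly keep the EGF-like signal lin-3 silent in cells where it does not belong. lin-15A belongs to class A and lin-15B to class B, and the neighbouring genes are transcribed as an operon. Most of the others are class B genes whose products form the DREAM complex. In it the E2F-like protein EFL-1 and its partner DPL-1 bind DNA with the pocket protein LIN-35, the worm relative of the human retinoblastoma protein. The MuvB core consists of LIN-9, LIN-37, LIN-52, the histone chaperone LIN-53 and the DNA-binding protein LIN-54. DREAM represses cell cycle genes, and in somatic cells class B genes keep germline genes off. The marks measured here are H3K27me3, which a Polycomb complex that contains MES-3 puts on silent chromatin, and H3K36me3, which MES-4 and MET-1 put on transcribed or germline-expressed genes.

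The study compared worms that inherited sperm chromosomes without H3K27me3 (M+P-) with worms that inherited the mark from both parents (M+P+). In the first cross, fem-2(b245ts) mothers of the CB4856 strain background were mated to fathers of the N2 background. Fathers of M+P- offspring were mes-3(bn35); him-8 males, and fathers of M+P+ offspring were mes-3(bn35)/hT2-GFP; him-8 males. All offspring of the first cross were heterozygous for mes-3(bn35), for fem-2(b245ts) and for him-8(e1489). In the second cross the F1 hermaphrodites carried mes-3(bn199)/+ with a glh-1::GFP::3xflag tag and fem-2(b245ts). Their fathers were mes-3(bn199) or mes-3(bn199)/hT2-GFP. The F2 hermaphrodites came from selfed M+P- F1 mothers. mes-3(bn35); him-8(e1489) males from heterozygous mothers and him-8(e1489) males served as models of the fathers. Each germline RNA library pooled the distal gonads of 30 to 50 day 1 adults kept at 20 °C, and each L1 library pooled about 100 whole larvae. fem-2 stocks were kept at 15 °C and raised at 25 °C to give females. The groups held 3 mes-3 and 3 him-8 male libraries, 2 M+P- and 2 M+P+ hermaphrodite libraries, 4 M+P- and 4 M+P+ male libraries, and 3 M+P- and 3 M+P+ L1 libraries in the first cross. The second cross held 3 F2, 3 F1 M+P- and 3 F1 M+P+ libraries. CUT&RUN had 2 libraries of each mark from each germline group except the mes-3 fathers and first-cross males.

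The 33 RNA libraries held 5706650 to 19191934 counts, the 12 H3K27me3 libraries 2797547 to 25714782 and the 12 H3K36me3 libraries 1701400 to 41980395. Library 3 of the F1 M+P- group stood apart: it had 0 counts on the whole X chromosome and 0 counts of the autosomal efl-1, so it was left out of values and fits unless named. mes-3 transcripts were counted in every library, at 20.4 to 41.9 CPM (counts scaled to a common library total) in mes-3 males and 38.7 to 46.5 CPM in him-8 males, so their level did not separate the genotypes. Germ cell markers summed to 4983 to 5260 CPM in first-cross hermaphrodite germlines and to 15.5 to 55.6 CPM in L1 larvae, where all 6 markers were detected. In these bulk samples, fewer cells of a type and less RNA per cell cannot be told apart.

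All 8 autosomal members were well expressed in adult germlines, and the X-linked pair was near the limit of detection in male germlines. Levels can be ranked between genes only per length. In the authors' deposited table, lin-53 had the highest RPKM (reads scaled by gene length and library total) of the 10 in hermaphrodite M+P+ germlines at 263 RPKM. In that table, lin-54 had 102, lin-37 85.3, dpl-1 78.0, lin-9 76.2, efl-1 71.4, lin-52 63.9 and lin-35 62.1 RPKM. The same table gave lin-15B 21.3 RPKM and lin-15A 16.7 RPKM in these germlines. The table holds no spread, so neighbours in this order cannot be separated by replicate error. In male M+P+ germlines the authors' deposited table put lin-53 at 103 RPKM, dpl-1 at 20.6, lin-15A at 0.887 and lin-15B at 0.713 RPKM. In L1 M+P+ larvae it put lin-53 at 61.6, dpl-1 at 11.3, lin-15B at 15.1 and lin-15A at 9.71 RPKM. lin-15B was thus next to last of the members in hermaphrodite germlines, and in L1 larvae of that table it stood above 6 of them.

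**Figure D1:**
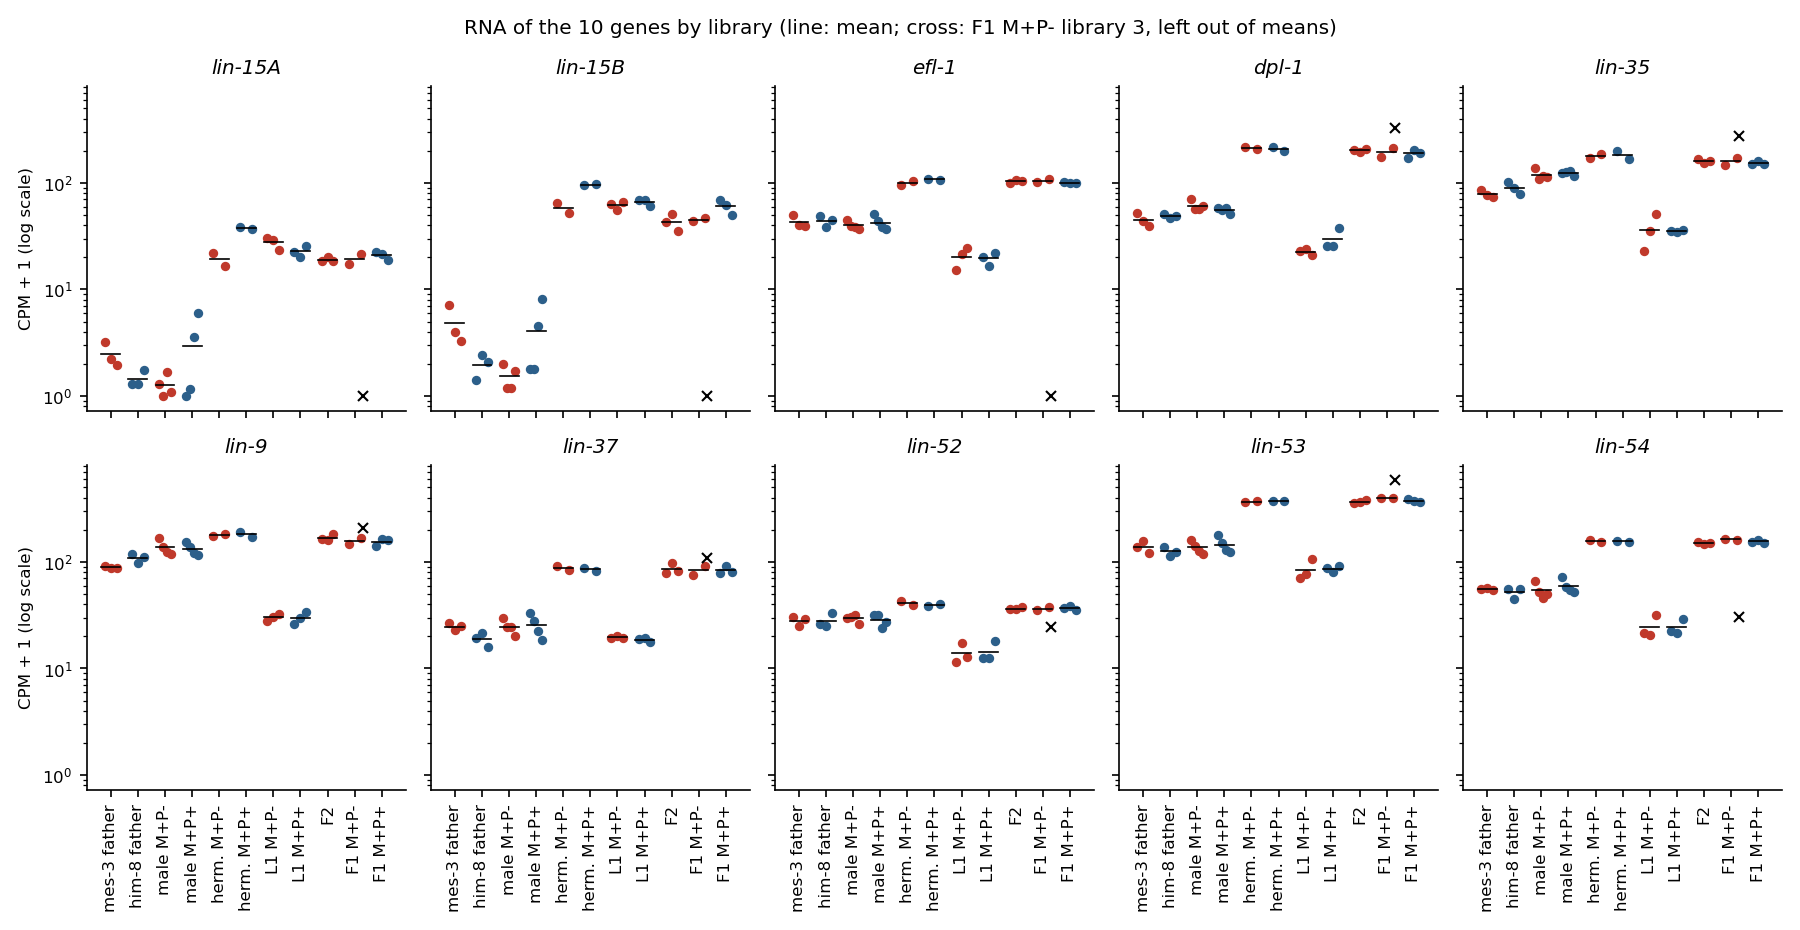
RNA of the 10 genes in each library (points, CPM + 1 on a log axis) by group, with the group mean as a line; red marks mes-3 fathers, M+P- and F2, and blue marks him-8 fathers and M+P+. The lin-15A and lin-15B points of male groups sit below 8 CPM, while all 8 autosomal genes stay above 14 CPM in adult germlines apart from F1 M+P- library 3, which is the cross.

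In first-cross hermaphrodite germlines the X-linked pair fell in M+P- worms, while none of the autosomal DREAM genes passed the test in either direction. lin-15A had 20.9 and 15.7 CPM in hermaphrodite M+P- germlines, against 37.8 and 35.9 CPM in hermaphrodite M+P+ germlines. lin-15B had 63.6 and 51.7 CPM in hermaphrodite M+P- germlines, against 95.0 and 95.8 CPM in hermaphrodite M+P+ germlines. The groups did not overlap for either gene, and the share of all genes without overlap is not given here. The fold changes, tested here and throughout with edgeR's quasi-likelihood test and Benjamini-Hochberg adjustment over all genes, were -1.01 ± 0.16 on the log2 scale for lin-15A (SE, adjusted p = 0.00125) and -0.73 ± 0.10 for lin-15B (SE, adjusted p = 0.000596). Both calls held in each alternative that was run. The fits with 1 library left out leave an arm of 1 library, which is assumed to vary like the other group. The authors' deposited table gave adjusted p-values of 2.89e-05 for lin-15A and 0.00273 for lin-15B.

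This drop was shared by much of the X chromosome. Of all 8409 genes tested, 4.63% were called lower, but of the 820 X-linked genes tested 311 were called lower (37.9%), with a median of -0.71 and quartiles of -1.09 and -0.36. From the lowest fold change up, lin-15A ranked 239 and lin-15B ranked 390 of those 820. The 2 genes therefore lay inside the middle range of X-linked genes and are not set apart from them.

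The 8 autosomal members had fold changes from -0.11 ± 0.08 (efl-1, SE) to 0.06 ± 0.12 (lin-52, SE). efl-1 had 95.3 and 103 CPM in hermaphrodite M+P- germlines, against 108 and 105 CPM in hermaphrodite M+P+ germlines. dpl-1 had 214 and 208 CPM in hermaphrodite M+P- germlines, against 217 and 199.6 CPM in hermaphrodite M+P+ germlines. lin-35 had 172 and 187 CPM in hermaphrodite M+P- germlines, against 199 and 167 CPM in hermaphrodite M+P+ germlines, and these groups overlapped. lin-53 had 364 and 369 CPM in hermaphrodite M+P- germlines, against 376 and 369 CPM in hermaphrodite M+P+ germlines. Among autosomal genes at 10 CPM or more, 60 of 5294 were called lower (1.13%).

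Some somatic markers also differed between these groups. Neuronal markers summed to 17.2 to 17.6 CPM in M+P- and 1.79 to 2.45 CPM in M+P+ hermaphrodite germlines, with 4 of 5 and 3 to 4 of 5 detected. The defining synaptic gene snt-1 was at 0 in all 4 libraries, and most of the M+P- sum came from unc-31 and egl-3. Muscle markers summed to 40.0 to 42.3 CPM in M+P- and 13.8 to 16.4 CPM in M+P+ hermaphrodite germlines, with all 5 detected in both groups. Intestinal markers summed to 57.2 to 158 CPM in M+P- and 24.2 to 34.5 CPM in M+P+ hermaphrodite germlines, where elt-2 was at 0. Oocyte markers summed to 11114 to 11208 CPM in M+P- and 12484 to 13660 CPM in M+P+ hermaphrodite germlines. The part of these differences in the lin-15 results was not tested.

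**Figure D2:**
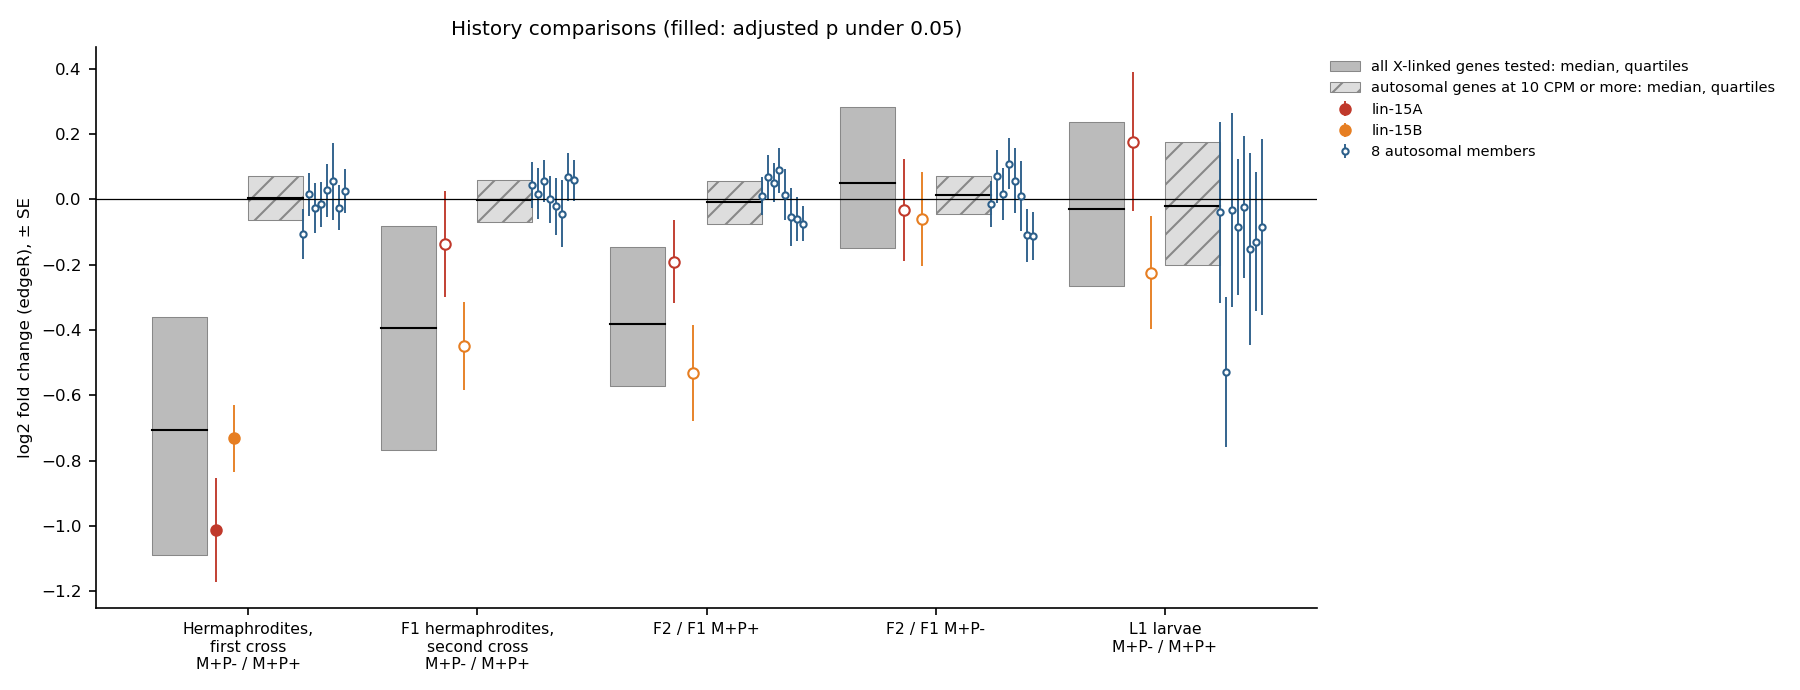
Log2 fold change ± SE of each member (points, filled where adjusted p was under 0.05 in the main unpaired fit) in the 5 comparisons of inherited history, beside the median and quartiles of X-linked and of autosomal genes (boxes). The filled points are lin-15A at -1.01 and lin-15B at -0.73 in first-cross hermaphrodites; the 8 autosomal members there lie between -0.11 and 0.06.

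In the second cross, lin-15B was the member nearest to a call against F1 M+P+ germlines. It missed the threshold in the main unpaired edgeR fits for F1 M+P- and for F2 germlines. With libraries blocked by replicate number it was called lower in both. lin-15B had 42.01, 50.4 and 34.7 CPM in F2 germlines and 42.6 and 46.0 CPM in F1 M+P- germlines, against 68.8, 61.0 and 49.4 CPM in F1 M+P+ germlines. The highest F2 library overlapped the lowest F1 M+P+ library, and the F1 M+P- libraries lay below all 3 F1 M+P+ libraries. lin-15A had 17.6, 18.97 and 17.4 CPM in F2 germlines and 16.3 and 20.7 CPM in F1 M+P- germlines, against 21.6, 20.6 and 17.98 CPM in F1 M+P+ germlines. These lin-15A values overlapped between groups.

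For F1 M+P- over F1 M+P+, lin-15B changed by -0.45 ± 0.14 (SE, adjusted p = 0.127) and lin-15A by -0.14 ± 0.16 (SE, adjusted p = 0.838). edgeR called 0 of the 10 members, 1 had an unadjusted p under 0.05, and DESeq2 called 0, while 3.16% of all genes tested were called. The X-linked median was -0.39. For F2 over F1 M+P+, lin-15B changed by -0.53 ± 0.15 (SE, adjusted p = 0.0905) and lin-15A by -0.19 ± 0.13 (SE, adjusted p = 0.557), beside an X-linked median of -0.38. edgeR called 0 of the 10 and 3.21% of genes, and 1 member had an unadjusted p under 0.05. DESeq2 called 1 member, lin-15B, at an adjusted p of 0.0217, and called 341 genes in all. Same-numbered F2 and F1 M+P+ libraries deviated together, and with the replicate number as a block lin-15B was lower at -0.53 with an adjusted p of 0.00523, where 2.91% of genes were called lower. With no filter on low counts lin-15B was called in both comparisons, at an adjusted p of 0.00156 for F1 M+P- and 4.34e-06 for F2. With the replicate number as a block it was called for F1 M+P- too, at -0.57 with an adjusted p of 0.000221. There 919 genes were called, and only 2 numbers were shared. The F1 M+P- and F2 comparisons share their F1 M+P+ libraries. Neuronal markers summed to 18.7 to 24.2 CPM in F2, 14.8 to 19.1 CPM in F1 M+P- and 3.22 to 3.504 CPM in F1 M+P+ germlines. Of the 5 markers, 4 were detected in F2 and F1 M+P- germlines and 2 to 3 in F1 M+P+ germlines, where rab-3 and snt-1 were at 0. Muscle markers summed to 49.2 to 68.9 CPM in F2, 52.8 to 75.3 CPM in F1 M+P- and 19.003 to 36.4 CPM in F1 M+P+ germlines, with 5 of 5 detected. Intestinal markers summed to 465 to 1129 CPM in F2, 1099 to 1934 CPM in F1 M+P- and 228 to 952 CPM in F1 M+P+ germlines, with 4 to 5 of 5 detected. Somatic gonad markers summed to 38.96 to 44.7 CPM in F2, 48.6 to 52.2 CPM in F1 M+P- and 36.1 to 38.95 CPM in F1 M+P+ germlines, with 5 of 5 detected. The part of these markers in the lin-15B values was not tested.

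None of the autosomal members was called across these generations. Between F2 and F1 M+P- germlines their fold changes ran from -0.11 ± 0.07 (lin-54, SE) to 0.11 ± 0.08 (lin-9, SE), and lin-15A and lin-15B changed by -0.03 ± 0.16 and -0.06 ± 0.14 (SE). edgeR called 0 of the 10 there, 0 had an unadjusted p under 0.05 and DESeq2 called 0, at a background of 0.0464%. lin-53 had 354, 362 and 382 CPM in F2 germlines and 397 and 393 CPM in F1 M+P- germlines, against 386, 372 and 361 CPM in F1 M+P+ germlines. lin-54 had 152, 147 and 151 CPM in F2 germlines and 165 and 160 CPM in F1 M+P- germlines, against 152, 161 and 151 CPM in F1 M+P+ germlines. The excluded F1 M+P- library 3 had 29.2 CPM of lin-54, and with it lin-15B was at -1.03 with an adjusted p of 0.917 in the F1 comparison.

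In L1 larvae none of the members was called. lin-15A had 29.7, 28.4 and 22.5 CPM in L1 M+P- larvae, against 21.7, 19.2 and 24.6 CPM in L1 M+P+ larvae. lin-15B had 62.8, 54.1 and 64.8 CPM in L1 M+P- larvae, against 68.3, 68.5 and 60.2 CPM in L1 M+P+ larvae. The groups overlapped for both genes, at fold changes of 0.18 ± 0.21 and -0.22 ± 0.17 (SE). edgeR called 0 of 10, DESeq2 called 0, and 1 had an unadjusted p under 0.05, with 0.00684% of genes called. That gene was dpl-1, at 22.1, 22.7 and 19.9 CPM in L1 M+P- larvae and 24.8, 24.7 and 36.6 CPM in L1 M+P+ larvae. Its fold change was -0.53 ± 0.23 (SE, adjusted p = 0.702), and the third M+P+ library set most of the distance between the groups.

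In male germlines the lin-15 pair was too low to be tested between histories. lin-15A had 4, 0, 7 and 1 counts in male M+P- germlines, against 0, 2, 30 and 59 counts in male M+P+ germlines. On the CPM scale lin-15B had 1.00, 0.195, 0.193 and 0.734 CPM in male M+P- germlines, against 0.798, 0.786, 3.57 and 7.13 CPM in male M+P+ germlines. Libraries 3 and 4 of the male M+P+ group held most of the counts of both genes. Library 3 also had 2052 CPM of muscle markers, the highest of the male libraries. Library 4 had 16.4 CPM of muscle markers and the highest lin-15A and lin-15B, and nhr-48, an X-linked gene near lin-15B, had 31 counts there and 52 in library 3. In the authors' deposited table lin-15B changed by -2.60 on the log2 scale with an adjusted p of 0.0947, and lin-15A by -2.96 with an adjusted p of 0.599. The 8 autosomal members were tested here, edgeR called 0, 0 had an unadjusted p under 0.05 and DESeq2 called 0, with 0.49% of genes called. Their fold changes ran from -0.17 ± 0.12 (lin-54, SE) to 0.10 ± 0.08 (dpl-1, SE).

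In the germlines of the fathers no member was called. lin-15B had 6.13, 2.98 and 2.27 CPM in mes-3 male germlines, against 0.423, 1.41 and 1.06 CPM in him-8 male germlines. lin-15A had 2.22, 1.23 and 0.956 CPM in mes-3 male germlines, against 0.282, 0.282 and 0.760 CPM in him-8 male germlines, and was too low to be tested. All mes-3 libraries lay above all him-8 libraries for both genes, which were near the limit of detection. The share of all genes whose libraries separate in this way is not given here. The lin-15B fold change was 1.89 ± 0.63 (SE, adjusted p = 0.126), beside a median of 1.20 over the 237 X-linked genes tested. lin-9 had 89.9, 86.0 and 87.2 CPM in mes-3 male germlines, against 117.5, 96.4 and 111 CPM in him-8 male germlines, again without overlap. Its fold change was -0.35 ± 0.09 (SE, adjusted p = 0.0502), and the authors' deposited table gave -0.40 with an adjusted p of 0.0430. edgeR called 0 of the 9 members tested and 8.33% of genes, and 2 members had an unadjusted p under 0.05. DESeq2 called 1 member, lin-9, at an adjusted p of 0.0354, and called 1089 genes in all. RLE scaling and no filter on low counts called lin-9 too, at adjusted p-values of 0.0468 and 0.0147. Neuronal markers summed to 23.0 to 36.6 CPM in mes-3 male germlines and 1.67 to 3.39 CPM in him-8 male germlines, with 4 to 5 of 5 and 2 to 4 of 5 detected and snt-1 at 0 in him-8 males. Muscle markers summed to 40.0 to 115 CPM in mes-3 and 16.1 to 36.8 CPM in him-8 male germlines, and somatic gonad markers to 85.9 to 103 CPM in mes-3 and 50.9 to 76.4 CPM in him-8 male germlines, with 4 to 5 of 5 of each list detected in both groups. The part of these markers in the lin-9 and lin-15 values was not tested.

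The effect of inherited history was compared between tissues directly. For males minus hermaphrodites, lin-15A differed by -1.92 ± 1.73 and lin-15B by -1.82 ± 1.06 (SE). There edgeR called 0 members, 0 had an unadjusted p under 0.05 and DESeq2 called 0, with 0.0% of genes called. For L1 larvae minus hermaphrodites, lin-15A differed by 1.13 ± 1.73 and lin-15B by 0.45 ± 1.06 (SE). Again edgeR called 0, 0 had an unadjusted p under 0.05 and DESeq2 called 0, with 0.0468% of genes called. For L1 larvae minus males, edgeR called 0 members and 0.135% of genes, and 2 members had an unadjusted p under 0.05. DESeq2 called 1 member and 398 genes in all. The member called by DESeq2 was dpl-1, at -0.67 with an adjusted p of 0.0159, and the other with a low unadjusted p was lin-15B. The joint fit includes the male libraries, where lin-15A had 0 to 59 counts in M+P+ germlines. With the male groups left out, an alternative chosen after seeing the data, lin-15A differed by 1.13 ± 0.31 for L1 larvae minus hermaphrodites (SE, unadjusted p = 0.00366, adjusted p = 0.143) and lin-15B by 0.45 ± 0.25 (SE, adjusted p = 0.668). In that fit edgeR called 0 members and 172 genes, and 2 members, lin-15A and dpl-1, had an unadjusted p under 0.05; DESeq2 was not run on it.

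Most of the DREAM genes differed between the sexes. In M+P+ germlines 7 of the 10 members were lower in males than in hermaphrodites, against 22.3% of the 10231 genes tested. Among autosomal genes at 10 CPM or more, 23.9% were lower and the median fold change was 0.13, while the median of the 10 members was -1.17. The E2F partner dpl-1 fell most among the autosomal members. It had 57.6, 54.6, 56.7 and 50.2 CPM in male germlines, against 217 and 199.6 CPM in hermaphrodite germlines, a change of -1.71 ± 0.07 (SE, adjusted p = 4.86e-05). efl-1 had 49.8, 42.7, 37.6 and 35.7 CPM in male germlines, against 108 and 105 CPM in hermaphrodite germlines, a change of -1.14 ± 0.14 (SE, adjusted p = 0.000868). For both partners, the highest male library lay below the lowest hermaphrodite library, and the share of all genes without overlap is not given here. Gamete markers differed between the same libraries. The 6 oocyte markers summed to 810 to 2464 CPM in male M+P+ germlines and 12484 to 13660 CPM in hermaphrodite M+P+ germlines. The 6 sperm markers summed to 1574 to 3344 CPM in male M+P+ germlines and 61.2 to 63.8 CPM in hermaphrodite M+P+ germlines. All markers of both lists were detected in every one of these libraries. Of the 4 male libraries, library 1 had the highest oocyte sum and library 4 the lowest. efl-1, dpl-1, lin-37, lin-54, lin-53 and lin-9 were also highest in library 1 and lowest in library 4. lin-35 was highest in library 3 and lowest in library 4, and lin-52 was highest in library 2 and lowest in library 3. lin-15A and lin-15B went the other way, with their highest values in library 4. The part of gamete composition in the sex differences of the members was not tested.

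Of the MuvB core, 3 genes fell to a similar degree and 2 were not called. lin-37, the core subunit, had 32.5, 26.9, 21.4 and 17.4 CPM in male germlines, against 86.8 and 81.9 CPM in hermaphrodite germlines, at -1.56 ± 0.23 (SE, adjusted p = 0.00202). lin-54, which gives the core its DNA contact, had 70.9, 57.3, 53.1 and 51.0 CPM in male germlines, against 156 and 153 CPM in hermaphrodite germlines, at -1.19 ± 0.13 (SE, adjusted p = 0.00059). lin-53 had 176, 149, 128 and 123 CPM in male germlines, against 376 and 369 CPM in hermaphrodite germlines, at -1.15 ± 0.14 (SE, adjusted p = 0.000814). lin-9 had 152, 136, 121 and 115 CPM in male germlines, against 192 and 169 CPM in hermaphrodite germlines, at -0.24 ± 0.11 (SE, adjusted p = 0.125). lin-52, the small subunit that links the core to LIN-35, had 30.8, 31.1, 22.9 and 26.2 CPM in male germlines, against 37.8 and 38.9 CPM in hermaphrodite germlines, at -0.25 ± 0.18 (SE, adjusted p = 0.287). Male and hermaphrodite libraries did not overlap for any of these 5 genes, including lin-9 and lin-52, which were not called. How many of all genes separate in this way is not given. Differences were common here: 5982 of 10231 genes tested had an unadjusted p under 0.05 with edgeR.

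The pocket protein gene lin-35 sat between these classes. It had 124, 126, 129 and 114 CPM in male germlines, against 199 and 167 CPM in hermaphrodite germlines, at -0.35 ± 0.08 (SE, adjusted p = 0.0119). Its call was lost with no filter on low counts (adjusted p = 0.0578) and without hermaphrodite M+P+ library 1 (adjusted p = 0.204). lin-35 overlaps C32F10.4 and hmg-3 in RefSeq, dpl-1 lies inside T23G7.2 and lin-52 overlaps arl-5, and with no strand marked by the kit, reads of overlapping genes cannot be told apart.

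The X-linked pair showed the widest sex difference and the largest error. lin-15B had 0.798, 0.786, 3.57 and 7.13 CPM in male germlines, against 95.0 and 95.8 CPM in hermaphrodite germlines, at -4.71 ± 0.92 (SE, adjusted p = 0.00622). lin-15A had 0, 0.157, 2.55 and 5.07 CPM in male germlines, against 37.8 and 35.9 CPM in hermaphrodite germlines, at -3.99 ± 1.57 (SE, adjusted p = 0.0764). DESeq2 called lin-15A as well, at -3.94 with an adjusted p of 0.0229, and so called 8 members. Every male library lay far below both hermaphrodite libraries for either gene, and the male libraries differed widely among themselves. Without male M+P+ library 4 lin-15A was called at -5.16 with an adjusted p of 0.0488. Without libraries 3 and 4, an alternative chosen after seeing the data, it was called at -8.56 with an adjusted p of 9.29e-06. The median of the X-linked genes tested was -3.23.

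**Figure D3:**
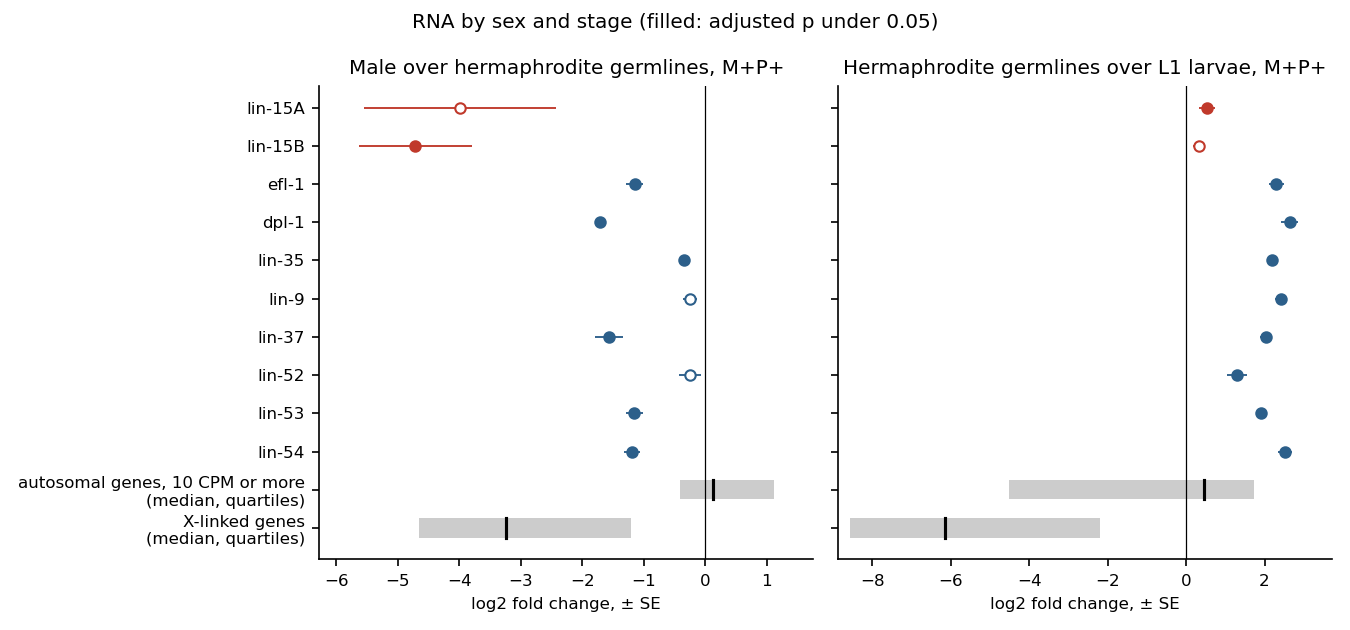
Log2 fold change ± SE of the 10 genes (red, X-linked; blue, autosomal; filled where adjusted p was under 0.05) between male and hermaphrodite M+P+ germlines and between hermaphrodite M+P+ germlines and L1 M+P+ larvae, with gene class medians and quartiles as bars. 7 genes are filled below 0 in the sex panel and 9 above 0 in the stage panel.

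Compared with whole L1 larvae, hermaphrodite germlines had more RNA of 9 of the 10 members, against 28.9% of the 14714 genes tested. Among autosomal genes at 10 CPM or more, 50.0% were higher. The members' median fold change was 2.12, that of all genes tested was -2.69 and that of these autosomal genes was 0.45. dpl-1 had 217 and 199.6 CPM in hermaphrodite germlines, against 24.8, 24.7 and 36.6 CPM in L1 larvae, at 2.64 ± 0.21 (SE, adjusted p = 1.63e-05). lin-35 had 199 and 167 CPM in hermaphrodite germlines, against 34.1, 33.4 and 34.8 CPM in L1 larvae, at 2.20 ± 0.14 (SE, adjusted p = 5.42e-06). lin-52 rose least among the autosomal genes, at 37.8 and 38.9 CPM in hermaphrodite germlines against 11.5, 11.5 and 17.1 CPM in L1 larvae, with 1.31 ± 0.26 (SE, adjusted p = 0.00215). lin-54, lin-9, efl-1, lin-37 and lin-53 rose by 2.51, 2.42, 2.302, 2.04 and 1.90 on the log2 scale.

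The X-linked pair hardly differed between these tissues, unlike most X-linked genes. lin-15A rose by 0.53 ± 0.21 (SE, adjusted p = 0.0426) and lost its call without hermaphrodite M+P+ library 1 or 2 (adjusted p of 0.153 and 0.150) or without L1 M+P+ library 2 (adjusted p of 0.0533). lin-15B had 95.0 and 95.8 CPM in hermaphrodite germlines, against 68.3, 68.5 and 60.2 CPM in L1 larvae, at 0.32 ± 0.14 (SE, adjusted p = 0.0662), and DESeq2 called it at an adjusted p of 0.00674. The median of the 2165 X-linked genes tested was -6.16. From the lowest up, lin-15A ranked 1989 and lin-15B 1972 of them. Another scaling, RLE, moved the median of all genes by 0.14 here.

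The wider pathway was described with 59 other genes in 10 lists, which were drawn up with earlier results of these data known. In the first-cross hermaphrodite history comparison none of the 59 was called in either direction. In the F1 and the F2 over F1 M+P+ comparisons the only call was the chromatin remodeller chd-3, at -1.06 ± 0.17 (SE, adjusted p = 0.0141) and -1.09 ± 0.22 (SE, adjusted p = 0.0201). This 1 call among the 59 compares with 3.16% and 3.21% of all genes called. chd-3 averaged 13.8 ± 4.59 CPM in F2 germlines (SD, n = 3) and 13.96 ± 2.28 CPM in F1 M+P- germlines (SD, n = 2), against 28.7 ± 4.48 CPM in F1 M+P+ germlines (SD, n = 3). Among the fathers the only call was cki-1, an inhibitor of cyclin-dependent kinases, which averaged 5.67 ± 1.60 CPM in mes-3 males and 0.640 ± 0.503 CPM in him-8 males (SD, n = 3 each), a change of 3.07 ± 0.62 (SE, adjusted p = 0.0238). There 8.33% of all genes were called.

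Between the sexes the lists differed in direction. Of the 59, 35 were lower and 8 higher in male germlines, while among all 10231 genes tested 22.3% were lower and 3131 higher, and among autosomal genes at 10 CPM or more 23.9% were lower and 37.5% higher. Among the 18 cell cycle genes of the kind that DREAM and E2F bind, 14 were lower and 2 higher, with a median of -1.63. The ribonucleotide reductase genes rnr-2 and rnr-1 averaged 99.4 ± 30.8 and 156 ± 33.2 CPM in male germlines (SD, n = 4), against 735 ± 38.8 and 788 ± 53.4 CPM in hermaphrodite germlines (SD, n = 2), at -2.67 ± 0.24 and -2.12 ± 0.17 (SE). The cyclin gene cyb-3 averaged 129 ± 29.7 CPM in male germlines (SD, n = 4), against 915 ± 30.0 CPM in hermaphrodite germlines (SD, n = 2), at -2.61 ± 0.18 (SE). The histone deacetylase gene hda-1 fell by 1.33 and the class B gene tam-1 by 1.02 on the log2 scale, as did lin-3 by 1.63. In contrast the Tip60 complex genes trr-1 and epc-1 rose by 0.72 and 0.48, and the germ granule gene glh-1 rose by 1.16. Of the 3 germ granule genes 2 rose and none fell. Of the synMuv A and the SUMO list, 1 of 3 genes fell in each. The differences in gamete markers given above hold for these lists too, and their part was not tested.

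Between hermaphrodite germlines and L1 larvae, 50 of the 59 list genes rose and 5 fell, where 28.9% of all genes and 50.0% of autosomal genes at 10 CPM or more rose. All 18 of the cell cycle list rose, with a median of 2.40, led by the cyclin genes cyb-1 at 5.01 ± 0.19 and cyb-3 at 4.89 ± 0.32 (SE). The germ granule genes pgl-3, pgl-1 and glh-1 rose by 7.16, 5.96 and 5.42, and mes-4 rose by 3.41. The G1 regulators split, with 3 up and 3 down. Cyclin E gene cye-1 rose by 4.67 while the cyclin D gene cyd-1 fell by 3.03 and cki-1 fell by 4.86 on the log2 scale.

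As a description across the 11 RNA groups, the genes whose mean log2(CPM + 1) followed lin-15B most closely among 13310 genes were lnp-1 (Pearson's r = 0.998), lin-15A (r = 0.996) and spat-3 (r = 0.995). All 3 are X-linked. Those closest to lin-35 were eif-2Bdelta (r = 0.999), ima-1 (r = 0.998) and Y53C12A.3 (r = 0.998), and lin-9 stood at rank 107 with r = 0.989. The points share tissue and sex, since most groups are adult germlines of either sex.

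Histone marks split the members by chromosome. The CUT&RUN table gave 0 counts of dpl-1 in all 24 libraries, so 9 members could be measured. dpl-1 lies inside another RefSeq gene, and of 208 expressed protein-coding genes with 0 counts in all libraries 147 did so, against 27 of 7652 with counts. In the authors' z-scores, lin-15A and lin-15B lay between 0.51 and 0.91 for H3K27me3 in hermaphrodite germlines, with all 20 values above 0. The 7 autosomal members with counts lay between -1.62 and -0.11, with 0 of 70 values above 0. For comparison, the median z-score of expressed genes was 0.706 on the X chromosome and -0.586 on autosomes.

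H3K36me3 gave the reverse order. The 7 autosomal members had z-scores of 0.25 to 1.79 in hermaphrodite germlines, with 70 of 70 above 0, where expressed autosomal genes had a median of 0.954. The X-linked pair lay between -0.31 and 0.61, with 8 of 20 above 0, higher than the median of -0.652 over expressed X-linked genes. In him-8 male germlines lin-15B had H3K36me3 z-scores of -1.10 and -0.92, and lin-15A had -1.45 and 0.02. The lowest H3K36me3 value of the pair there was 0.588 CPM, below the floor of 3 counts in the shallowest library (1.76 CPM). lin-35 had H3K27me3 z-scores of -1.75 and -1.09 in him-8 male germlines, and lin-37 had H3K36me3 z-scores of 1.44 and 1.48.

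**Figure D4:**
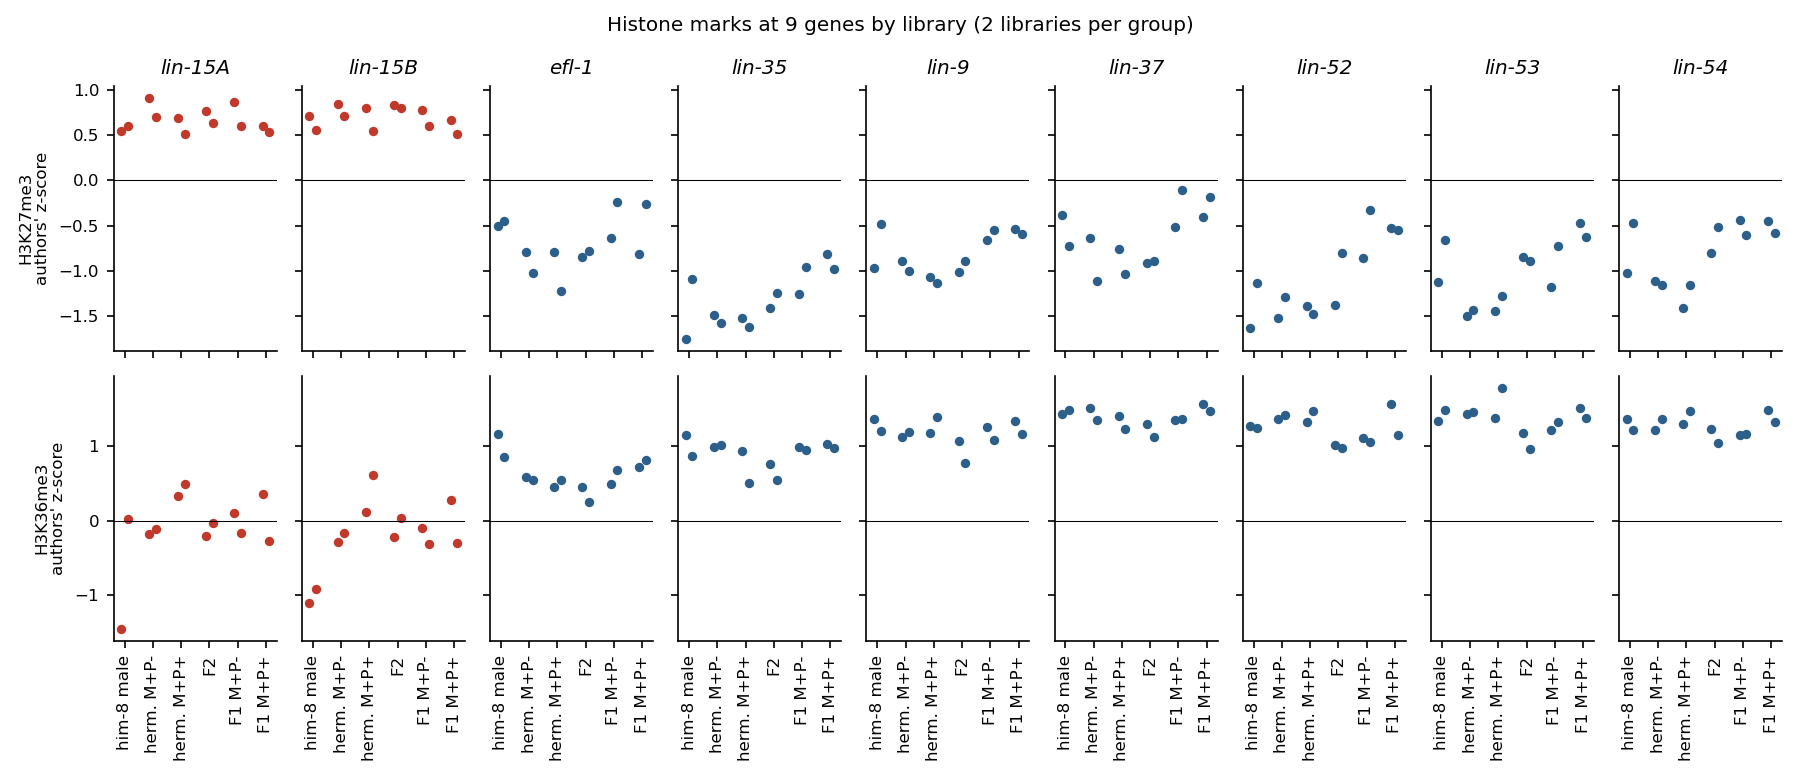
The authors' z-scores of H3K27me3 (top) and H3K36me3 (bottom) at the 9 genes with counts, 1 point per library and 2 libraries per group; red genes are X-linked. The red genes lie above 0 for H3K27me3 in every library, and the blue autosomal genes lie above 0 for H3K36me3 in every library.

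With no replicate block, H3K27me3 at the members did not pass the test between histories within a generation. lin-15A had 104.6 and 84.5 CPM of H3K27me3 in hermaphrodite M+P- germlines, against 83.6 and 67.2 CPM in hermaphrodite M+P+ germlines, at 0.27 ± 0.18 (SE). In the first cross edgeR called 0 of 9 members, 0 had an unadjusted p under 0.05 and DESeq2 called 0, with 0.0% of genes called. With the replicate number as a block edgeR called lin-15A at 0.27 with an adjusted p of 0.00178, where 2988 genes were called. In the F1 comparison of the second cross edgeR called 0, 0 had an unadjusted p under 0.05 and DESeq2 called 0, again with 0.0% of genes called.

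H3K27me3 was lower in F2 than in F1 M+P+ germlines at 4 of the 7 autosomal members with counts, while lin-52 (-0.96 ± 0.40, SE, adjusted p = 0.139), lin-53 (-0.69 ± 0.24, adjusted p = 0.0735) and lin-54 (-0.39 ± 0.22, adjusted p = 0.295) missed the threshold. Those 4 of the 9 members compare with 9.91% of the 29073 genes tested that were called lower. All 7 had little of the mark: 0 of their 70 H3K27me3 z-scores in hermaphrodite germlines were above 0. Loss of the mark and a lower background were not tested apart. lin-37 had 7.52 and 8.14 CPM in F2 germlines, against 14.9 and 18.04 CPM in F1 M+P+ germlines, at -1.07 ± 0.23 (SE, adjusted p = 0.00397). lin-35 had 20.5 and 26.5 CPM in F2 germlines, against 48.2 and 40.9 CPM in F1 M+P+ germlines, at -0.93 ± 0.18 (SE, adjusted p = 0.00146). lin-9 had 15.8 and 18.8 CPM in F2 germlines, against 30.6 and 28.9 CPM in F1 M+P+ germlines, at -0.79 ± 0.19 (SE, adjusted p = 0.00841). efl-1 had 34.4 and 38.5 CPM in F2 germlines, against 43.1 and 71.3 CPM in F1 M+P+ germlines, at -0.65 ± 0.18 (SE, adjusted p = 0.0232). The groups of 2 libraries did not overlap for any of these 4 genes, and the share of all genes without overlap is not given here.

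Many other autosomal genes expressed in germlines were called lower as well. Of 5165 autosomal genes at 10 CPM or more in hermaphrodite germline RNA, 2553 were lower (49.4%), with a median of -0.65, and 31 of the 58 list genes tested were lower. cdt-1 and cdc-6, which license replication origins, were at -1.12 ± 0.23 and -1.01 ± 0.23 (SE), and the vulval signal lin-3 was at -0.66 ± 0.14 (SE). lin-15B was higher, with 165 and 159 CPM in F2 germlines against 139 and 119.5 CPM in F1 M+P+ germlines, at 0.32 ± 0.10 (SE, adjusted p = 0.0482), where 0.65% of genes were called higher. That call was lost with DESeq2 (adjusted p = 0.0612) and without F2 library 1 (0.210), F2 library 2 (0.0986) or F1 M+P+ library 2 (0.415). Without F1 M+P+ library 2 only 2 of the 9 members were called.

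Against F1 M+P- germlines, lin-37, efl-1 and lin-9 were lower in F2 germlines at -1.09 ± 0.28 (SE, adjusted p = 0.0218), -0.79 ± 0.19 (SE, adjusted p = 0.0169) and -0.75 ± 0.23 (SE, adjusted p = 0.0453). 6.13% of all genes and 30.4% of the expressed autosomal genes were called lower. With RLE scaling 0 members were called, without F2 library 1, F2 library 2 or F1 M+P- library 2 0 were called, and without F1 M+P- library 1 5 were called. Both comparisons share the F2 libraries.

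**Figure D5:**
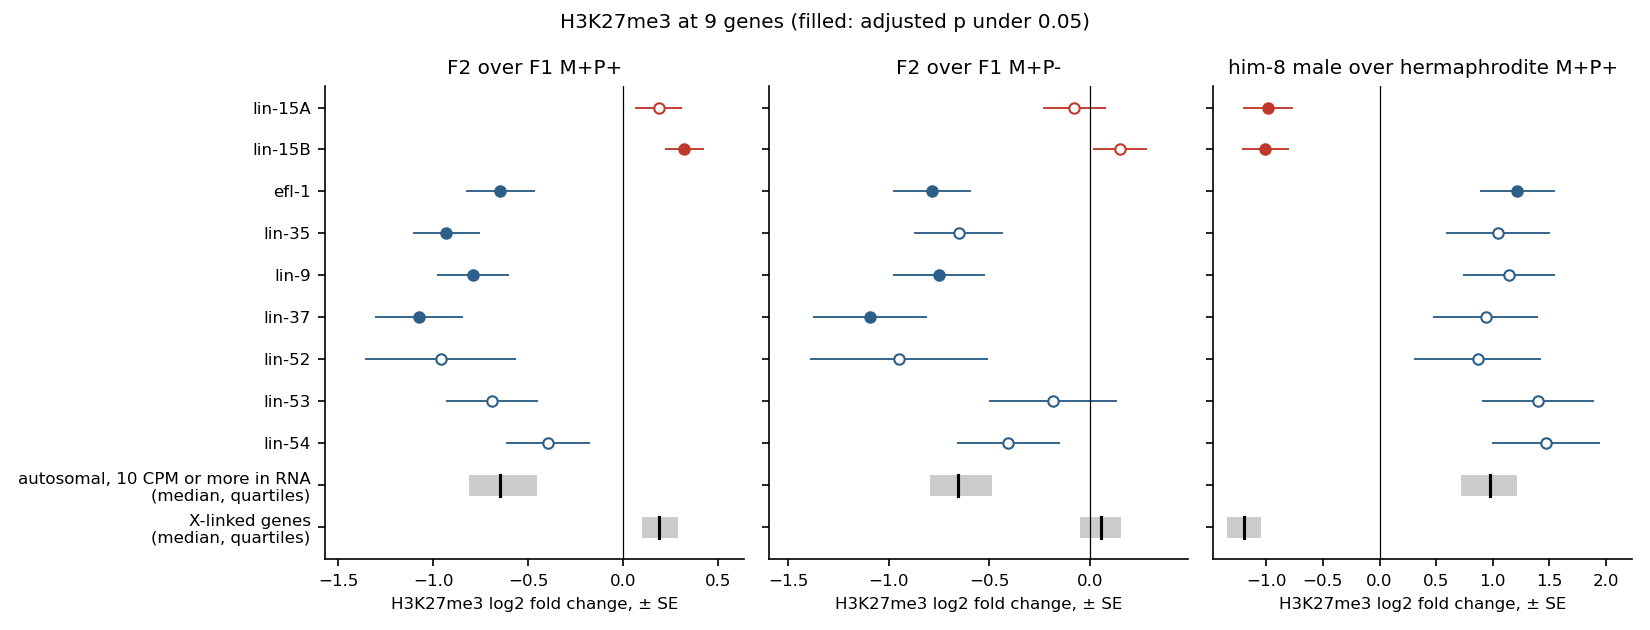
H3K27me3 log2 fold change ± SE at the 9 genes (red, X-linked; blue, autosomal; filled where adjusted p was under 0.05) in F2 over F1 M+P+, F2 over F1 M+P- and him-8 male over hermaphrodite M+P+ germlines, with gene class medians and quartiles as bars. For the classes, autosomal genes have a median of -0.65 in F2 over F1 M+P+ and 0.98 in him-8 males, where X-linked genes have -1.19.

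In him-8 male germlines, set against first-cross hermaphrodite M+P+ germlines, the X-linked pair had lower H3K27me3 CPM and efl-1 higher. lin-15A had 40.0 and 42.1 CPM in him-8 male germlines, against 83.6 and 67.2 CPM in hermaphrodite germlines, at -0.99 ± 0.22 (SE, adjusted p = 0.0091). lin-15B had 82.6 and 69.9 CPM in him-8 male germlines, against 163 and 120 CPM in hermaphrodite germlines, at -1.01 ± 0.21 (SE, adjusted p = 0.00543). efl-1 had 54.7 and 66.2 CPM in him-8 male germlines, against 33.5 and 14.9 CPM in hermaphrodite germlines, at 1.218 ± 0.33 (SE, adjusted p = 0.0258). None of these groups overlapped, and the share of all genes without overlap is not given here. Background calls were 8.86% lower and 5.13% higher. The class medians were -1.19 for X-linked genes, of which 62.1% were called lower, and 0.98 for expressed autosomal genes, of which 16.7% were called higher. The other 6 autosomal members had fold changes of 0.87 (lin-52) to 1.47 (lin-54) and were not called. Leaving out 1 library leaves 1 in its group, and it moved the calls of members and of all genes. Without him-8 library 2 the calls of lin-15A (-1.04) and efl-1 (1.05) were lost, and without hermaphrodite library 2 that of efl-1 (0.73) was lost. Without him-8 library 1, lin-35, lin-9, lin-53 and lin-54 gained a call, at 1.59, 1.56, 1.80 and 1.92. Without hermaphrodite library 1, lin-35 and lin-9 gained one, at 1.47 and 1.41. In the authors' z-scores the X-linked pair lay between 0.54 and 0.71 in him-8 male germlines, with 4 of 4 values above 0. Males hold 1 X chromosome and hermaphrodites 2, and CPM is not scaled for this. The groups differ in strain, sex, X copy number and depth, with 2797547 and 4606666 counts in the him-8 libraries, and these cannot be told apart.

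With the filter on low counts and no replicate block, edgeR called no member for H3K36me3 in any comparison. For him-8 males over hermaphrodites, DESeq2 (adjusted p = 0.00159) and edgeR with no filter (adjusted p = 0.00463) called lin-15B lower. In first-cross hermaphrodites lin-15B had 41.7 and 40.1 CPM of H3K36me3 in M+P- germlines, against 67.8 and 86.3 CPM in M+P+ germlines, at -1.20 ± 0.48 (SE). lin-15A had 27.2 and 25.2 CPM in M+P- germlines, against 49.2 and 41.5 CPM in M+P+ germlines, at -1.02 ± 0.43 (SE). The groups did not overlap, with the share of all genes without overlap not given here, and the X-linked median was -0.47. edgeR called 0 of 9, 1 had an unadjusted p under 0.05 and DESeq2 called 0, with 0.0% of genes called. Without M+P+ library 1, which leaves the deepest library as the only M+P+ one, 6 members and 11392 genes were called, lin-15A and lin-15B among them at -1.17 and -1.58.

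In the second cross the same test gave 0 calls as well. For F1 M+P- over F1 M+P+, edgeR called 0 of 9, 1 had an unadjusted p under 0.05 (lin-54 at -0.42 ± 0.20, SE) and DESeq2 called 0, with 0.121% of genes called. For F2 over F1 M+P+ the 7 autosomal members lay between -0.81 and -0.61 beside a median of -0.57 over expressed autosomal genes. edgeR called 0 of 9, 5 had an unadjusted p under 0.05 and DESeq2 called 0, with 0.0% of genes called. RLE scaling moved the median of all genes by -0.16 there. For F2 over F1 M+P- edgeR called 0 of 9, 0 had an unadjusted p under 0.05 and DESeq2 called 0, with 0.312% of genes called. Without F2 library 1, which leaves 1 F2 library, more members and more genes were called in both F2 comparisons. The 7 autosomal members then lay between -1.23 and -1.02 in F2 over F1 M+P+.

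In him-8 males against hermaphrodites the largest H3K36me3 difference among the members was that of lin-15B. It had 2.35 and 9.24 CPM in him-8 male germlines, against 67.8 and 86.3 CPM in hermaphrodite M+P+ germlines, at -3.77 ± 0.78 (SE, adjusted p = 0.493). The 2.35 CPM stood near the floor of 3 counts, which was 1.76 CPM in him-8 library 1 with its 1701400 counts. The X-linked median was -1.37 and lin-15B ranked 121 of 2797 X-linked genes from the lowest. Strain, sex, X copy number and depth differ between these groups too, and their part was not tested. edgeR called 0 of 9 members and 0.0% of genes, and 2 members had an unadjusted p under 0.05. DESeq2 called 1 member, lin-15B, at an adjusted p of 0.00159, and called 11 genes in all. Without hermaphrodite M+P+ library 1 lin-15B was called at -4.12 and without library 2 at -3.36.

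Reads that carry a strain variant tell the sperm allele from the oocyte allele. In RNA of first-cross hermaphrodites 7 members passed the minimum of variant reads, and lin-15B, lin-35 and dpl-1 had none. For lin-53, among those 7, the authors' deposited table lists no exonic variant count. The share of efl-1 reads from the sperm allele was 57.7% in hermaphrodite M+P- germlines (exact 95% interval 53.9 to 61.5) and 56.6% in hermaphrodite M+P+ germlines (52.9 to 60.2). It was 49.4% in male M+P- and 52.6% in male M+P+ germlines. For lin-15A, 11 of 22 reads were from the sperm allele in hermaphrodite M+P- germlines (50.0%, 28.2 to 71.8), against 15 of 53 in hermaphrodite M+P+ germlines (28.3%, 16.8 to 42.3). In males, which inherit their X from the mother, lin-15A had 0 sperm reads among 12 in M+P+ germlines, and the M+P- germlines had no variant reads. The 12 reads allow a sperm share of up to 26.5%. All intervals and floors cover counting error only.

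No member was called in the tests of allele balance between M+P- and M+P+ worms. lin-53 was among the RNA members of hermaphrodites through 62 reads of 1 M+P+ library, with no variant reads in the other 3 libraries, so its balance could not be compared there. In RNA, edgeR called 0 of 7 members in hermaphrodites (0.407% of genes called), lin-53 included, 0 of 6 in males (0.283%), 0 of 6 in L1 larvae (0.0292%) and 0 of 6 in F1 hermaphrodites (0.049%). For H3K27me3 it called 0 of 4 members in the first cross (1.29% of genes) and 0 of 7 in F1 (0.0%). For H3K36me3 it called 0 of 7 members in each cross (0.0% and 0.0%). The number of members with an unadjusted p under 0.05 was 0 in each of these 8 tests, and DESeq2 was not run on alleles. The H3K27me3 sperm share at lin-15A was 47.6% in hermaphrodite M+P- germlines (42.3 to 52.9) and 44.03% in hermaphrodite M+P+ germlines (38.5 to 49.7). At efl-1 it was 56.0% in hermaphrodite M+P- germlines (50.6 to 61.3) and 60.0% in hermaphrodite M+P+ germlines (53.9 to 65.8).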

How the data were processed

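RNA and CUT&RUN counts per gene were deposited by the authors as raw counts, and separate count columns, per the file headers, hold reads assigned to the sperm or the oocyte allele. The submitters' processing notes name build ce10 and, with no role for each, DESeq, DESeq2 1.22.2, HTSeq, Bowtie2 2.3.5.1 and TopHat2 2.1.1. Per the file headers, the authors also deposited a z-score for each gene and CUT&RUN library, that is, a standardised score. For RNA they deposited RPKM, a log2 fold change and an adjusted p-value per comparison. These were used as deposited by the authors.

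Each comparison was fitted on its 2 groups, and differences between tissues on all first-cross RNA groups, with edgeR 4.0.16 in R 4.3.3 (TMM scaling, filterByExpr, quasi-likelihood test, Benjamini-Hochberg over all genes tested, threshold 0.05). DESeq2 1.42.0, RLE scaling, no filter, a replicate block and leaving out each library were alternatives. Allele counts were tested with the library as a block at a mean of at least 10 allele counts (alternative 5). CPM was computed over all genes of a library. Python 3.11.15, pandas 2.3.3 and scipy 1.17.1 made the summaries. The fits were tested on simulated data. Gene names and overlaps came from RefSeq, matching 44080 of 45461 RNA genes and 44256 of 45624 CUT&RUN genes.

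The members, lists and tests were chosen with earlier results of these data known. All members are named in every comparison, and list genes only where called, at most 3 per list and comparison by fold change. The floor of 3 counts was 0.156 to 0.526 CPM in RNA, up to 1.07 CPM in H3K27me3 and up to 1.76 CPM in H3K36me3. The labels' protocols call the samples biological replicates, and p-values measure the spread between them. No 2 libraries of a group were identical (47 pairs). Where groups are said not to overlap, the share of all genes without overlap is not given. F1 M+P- library 3 was left out because it has no X-linked counts. Same-numbered F2 and F1 M+P+ RNA libraries correlated at 0.154 to 0.409 in their deviations over 3 pairs, so their numbers were taken as pairs. The main fit of that comparison, with its counts of calls, was still unpaired, and the paired result is the replicate block. The other comparisons over 3 or 4 shared numbers each held a negative correlation and were not taken as pairs. With only 2 shared numbers the correlation was 0.758 in first-cross H3K27me3, 0.481 in first-cross H3K36me3 and 0.462 in F1 RNA. It was -0.452 to 0.238 in the other such comparisons. These were not taken as pairs either, and whether their numbers pair the libraries is not settled.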

Additional observations from a re-analysis of the deposited data

How the results depend on the processing

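Of the members' tested values recomputed, 2446 stayed on their side of the threshold, 28 lost a call and 68 gained one. No called value changed sign, while 261 values that were not called did. Counts of members called changed as follows. With DESeq2, 1 was called in the fathers, 1 in F2 over F1 M+P+ RNA, 1 in the L1 minus male difference, 5 in him-8 H3K27me3 and 1 in him-8 H3K36me3. Over all genes DESeq2 called 1089, 341, 398, 4722 and 11 in these comparisons, in that order. With RLE scaling, 1 was called in the fathers and 0 in H3K27me3 of F2 over F1 M+P-. With no filter on low counts, 1 was called in the fathers, 1 in F1 RNA, 1 in F2 over F1 M+P+ RNA, 7 in him-8 H3K27me3 and 1 in him-8 H3K36me3.

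With the replicate block, 1 member was called in the fathers, 1 in F1 RNA (lin-15B at -0.57), 1 in F2 over F1 M+P+ RNA, 1 in first-cross H3K27me3 (lin-15A at 0.27), 1 in F1 H3K36me3 and 1 in F2 over F1 M+P+ H3K36me3; other member counts stayed within 1.5 times the main one. It raised genes called to 919 in F1 RNA, 2988 in first-cross H3K27me3 and 2026 in the fathers. With him-8 and hermaphrodite numbers crossed, chosen after seeing the data, 8 members were called in H3K27me3 and 2 in H3K36me3. Over all genes that H3K27me3 fit called 9300, against 4001 as reported. With the male groups left out, also chosen after seeing the data, 172 genes were called in the L1 minus hermaphrodite difference, against 8 with them.

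Leaving out each library gave 0 to 1 members in F2 over F1 M+P+ RNA, and in H3K27me3 2 to 5 in F2 over F1 M+P+, 0 to 5 in F2 over F1 M+P- and 1 to 7 in him-8 males. In H3K36me3 it gave 0 to 6 in the first cross, 0 to 7 and 0 to 2 for F2 over F1 M+P+ and M+P-, 0 to 2 in him-8 males and 0 to 1 for first-cross alleles. The causes were not tested. Over all alternatives, genes called in RNA ran from 210 to 2026 in the fathers (739 as reported), 369 to 1191 in first-cross hermaphrodites (819), 3 to 175 in males (45), 0 to 124 in L1 larvae (1), 0 to 919 in F1 (263), 125 to 814 in F2 over F1 M+P+ (266), 0 to 125 in F2 over F1 M+P- (4) and 2932 to 6804 between the sexes (5417). For H3K27me3 they ran from 0 to 2988 in the first cross (0), 0 to 180 in F1 (0), 1473 to 3797 in F2 over F1 M+P+ (3070), 0 to 4151 in F2 over F1 M+P- (1791) and 1569 to 9300 in him-8 males (4001). For H3K36me3 they ran from 0 to 11392 in the first cross (0), 8 to 1137 in F1 (29), 0 to 5715 in F2 over F1 M+P+ (0), 0 to 3982 in F2 over F1 M+P- (79) and 0 to 859 in him-8 males (0). The allele test of F1 RNA with library 3 was not run, since that library has no allele columns. With 2 libraries a group, several CUT&RUN calls were lost when 1 library was left out.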

Other observations

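Variant reads of some members were uneven in ways the counts alone do not show. lin-53 had 258 sperm-allele and 19 oocyte-allele RNA reads over all libraries, and the authors' deposited table lists no exonic variant count for it. In male germlines 88.5% of its variant reads were sperm-allele in M+P- and 94.1% in M+P+ libraries, and 1 hermaphrodite M+P+ library had 62 such reads and no oocyte-allele reads, while the hermaphrodite M+P- libraries had none. In L1 larvae the sperm share of lin-15A was 18.4% of pooled reads in M+P- and 29.1% in M+P+ libraries, beside X-linked medians of 29.4% and 34.5%. Autosomal medians were 53.5% and 50.6%. Males inherit their X from the mother and add no sperm-allele reads of X-linked genes. The part of males in these pools was not tested. Single libraries ran from 0% to 35.5% in M+P- and from 6.82% to 100% in M+P+ larvae, and the library at 100% had 4 reads. H3K36me3 reads also split between libraries of a group at several members. lin-54 had 35.9% and 78.9% sperm-allele reads in the 2 F1 M+P- libraries. lin-15A had 97.2% and 25.0% in F1 M+P+, and lin-52 had 72.7% and 32.9% in first-cross hermaphrodite M+P+ germlines.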
